A study of Rattus norvegicus with 12 samples.

Results

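The N-methyl-D-aspartate (NMDA) receptor subunit genes Grin1, Grin2a, Grin2b, Grin2c, Grin2d, Grin3a and Grin3b were examined in rat cerebellar cultures exposed to the neonicotinoid insecticide acetamiprid (ACE). Array probes were taken as members where the gene name in the array files was 1 of these 7 symbols. This gave 9 probes of 7 genes, out of 30367 probes with 26214 different entries in the gene name column, with 2 probes each for Grin1 and Grin3a. The cells came from the cerebellum of 1-day-old Sprague-Dawley rats and were grown as neuron-enriched cultures, for 8 days with 1% fetal bovine serum and then without serum. ACE cultures received 1 µM ACE from day 2 in vitro, renewed at each medium change, and total RNA was taken at 16 days in vitro (DIV). Control cultures received the solvent, dimethyl sulfoxide, at 0.001%, which the ACE cultures also contained. Each group had 6 arrays, and the control and ACE arrays with the same replicate number came from 1 lot of cells, prepared from a single litter, so that a lot pools several animals. The question of control versus ACE (CvA) was whether long exposure to a low dose altered gene expression in developing cerebellar neurons.

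NMDA receptors are glutamate-gated channels that pass calcium and open only when glutamate and a co-agonist, glycine or D-serine, are bound and the membrane is depolarised. Each receptor combines the obligatory GluN1 subunit, encoded by Grin1, with GluN2 subunits (Grin2a to Grin2d), which bind glutamate and set the kinetics of the channel, or with GluN3 subunits (Grin3a and Grin3b), which bind glycine and lower calcium entry. In the developing cerebellum, granule cells are known to move from GluN2B towards GluN2A and GluN2C as they mature, whereas GluN2D is found in interneurons and at early stages.

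All 9 probes were 60 bases long, so each gene was read from 1 or 2 short stretches of its transcript. The probes of 3 genes are shown with their base composition: those of Grin1 and Grin2b, which had 46.7% to 55% G+C, and that of Grin2d, which had 78.3%. Capitals mark runs of at least 5 consecutive G or C bases. Sequences are from the array files and read 5′ to 3′.
Grin1, A_43_P11774, chr3:3460217-3460350, minus strand: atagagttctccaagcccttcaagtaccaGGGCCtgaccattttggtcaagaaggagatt
Grin1, A_64_P085896, chr3:3454949-3455008, minus strand: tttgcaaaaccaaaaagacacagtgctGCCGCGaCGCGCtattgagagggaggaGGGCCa
Grin2b, A_44_P308696, chr4:172722609-172722668, minus strand: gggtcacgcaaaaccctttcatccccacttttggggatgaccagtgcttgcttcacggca
Grin2d, A_64_P118192, chr1:96309508-96309567, minus strand: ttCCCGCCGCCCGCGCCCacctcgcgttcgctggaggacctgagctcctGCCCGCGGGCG
The longest such run was 16 bases in the Grin2d probe, 6 and 5 bases in the Grin1 probes, and none reached 5 bases in the Grin2b probe. Only 0.207% of all probes on the array were as rich in G+C as that of Grin2d. Coordinates are those in the array files, on the rat build rn4. The A_43_P11774 coordinates span 134 bases, more than the probe itself. Further probes lay at chr10:105323397-105323456 for Grin2c, chr7:11244019-11244078 for Grin3b, and chr5:66406453-66406512 and chr5:66406544-66406603 for Grin3a, all on the minus strand. Whether a probe lies in an exon's coding part or in an untranslated region was not analysed here.

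The arrays differed in brightness, with a 75th percentile of the processed signal of 1803 to 4384 intensity units, and 75.4% to 91.0% of gene spots were well above background. The arrays of lot 1 were extracted with an older software version than the others, and those of lot 3 with a newer array design file. Lot 1 had 91.0% and 90.4% of spots well above background, against at most 84.7% on the other arrays. On every slide control RNA occupied position 1 and ACE RNA position 3, so slide position and exposure cannot be told apart. Neuronal, granule cell, Purkinje cell and interneuron markers were present, and glial markers were bright as well: 12 of 12 probes of the oligodendrocyte lineage list and 9 of 9 astrocyte probes were well above background on all 12 arrays. The cultures thus held RNA of several cell types. Fewer cells of a type and less RNA per cell cannot be told apart in such samples.

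No subunit probe passed the adjusted threshold in CvA. Of the 9 member probes, 7 passed the filter on low signal and were tested with limma, with the lot as a block and Benjamini-Hochberg adjustment over all probes tested. The count past an adjusted p of 0.05 was 0 of 7, and over all 23796 probes tested it was also 0 (0%). At an unadjusted p under 0.05 it was 2 of 7, Grin2a and Grin2d, both lower in ACE, where 3956 of all probes tested (16.6%) passed, 6.9% higher and 9.73% lower. The study printed p-values below the smallest that an exact signed-rank test over 6 pairs allows, so its paired rank test was not exact. The count below need not equal that of their test. The exact signed-rank test over the 6 pairs was under 0.05 only for probes that moved the same way in all 6 lots. This held for 1 of the 7 members, Grin2d, and for 11.6% of all probes tested. Grin2a and Grin3a A_64_P154352 came next, at an exact signed-rank p = 0.0625. Counts of 1 or 2 among 7 probes are too small to set apart from these shares.

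**Figure D1:**
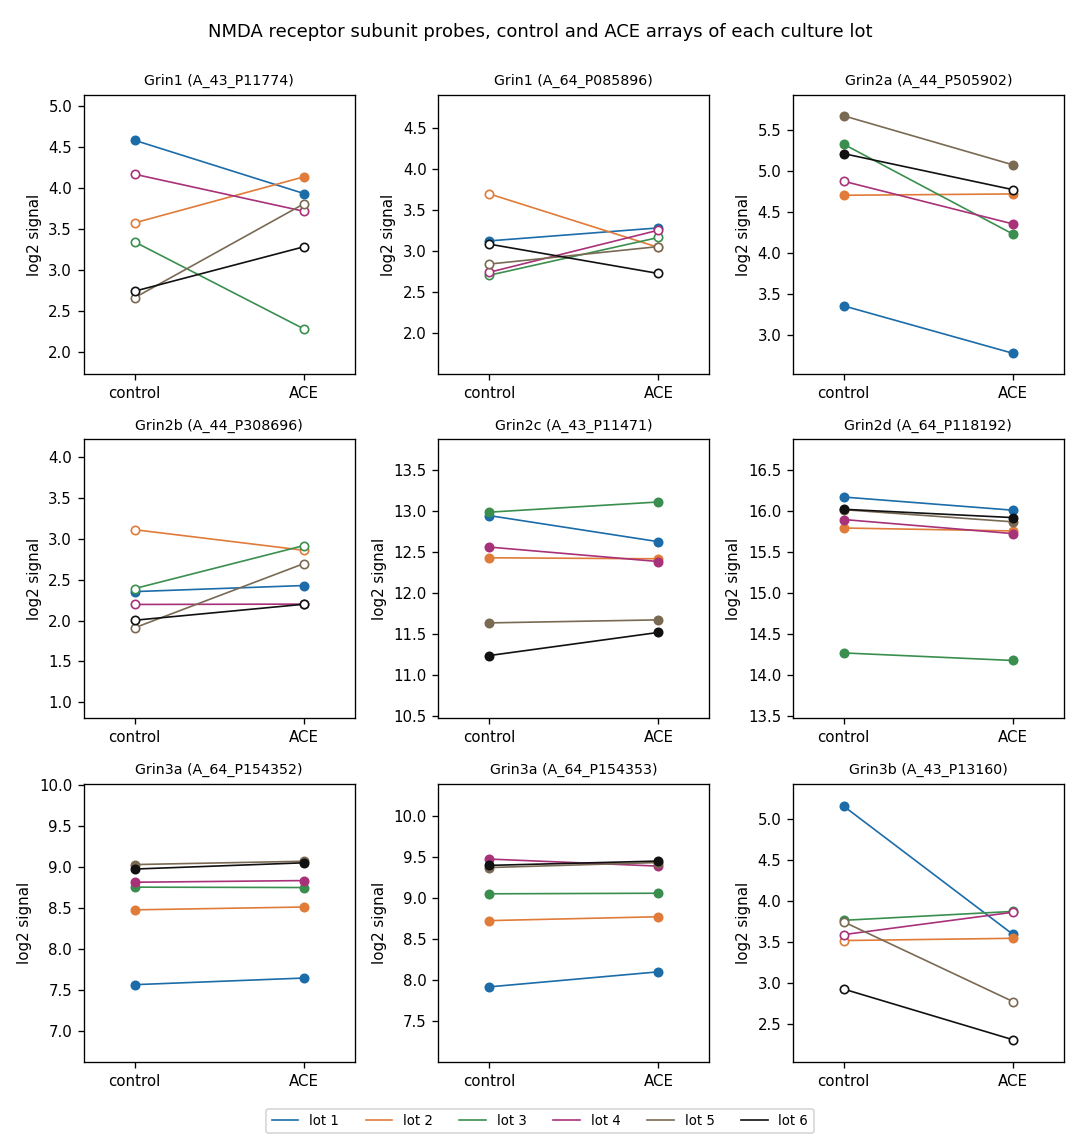
Quantile-normalised log2 signal of the 9 NMDA receptor subunit probes (y axis, each panel with its own level but the same height in log2 units) on the control and ACE arrays of 6 culture lots. A line joins the 2 arrays of a lot, filled points are well above background and open points are not. Lines within a panel run nearly level for Grin3a and Grin2d while the lots lie far apart, and the Grin2a lines fall in 5 of 6 lots.

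The obligatory subunit Grin1 was dim on these arrays. The A_43_P11774 signal was 2.66 at the lowest, 3.46 at the median and 4.58 at the highest in control and 2.28, 3.76 and 4.14 in ACE (log2). The groups overlapped over nearly their whole range, and just 1 control array and 2 ACE arrays, of lots 1 and 2, gave a signal well above background. Its mean difference of 0.01 log2 units (SE 0.31, 95% interval -0.73 to 0.75, limma adjusted p = 0.984) was higher in 3 lots and lower in 3. The other Grin1 probe, A_64_P085896, was well above background on 1 array of each group and was not tested. It averaged 3.04 in control and 3.09 in ACE, and was higher in 4 lots and lower in 2. Its difference of 0.06 turned sign without lot 3 (-0.03) and without lot 4 (-0.04). The Grin1 probes lie 5208 bases apart, and their signals correlated at r = 0.09 over the 12 arrays, as a description of arrays that share lots. At this signal a change in Grin1 of up to 0.73 log2 units in either direction lies inside the interval.

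Grin2a, whose GluN2A subunit marks mature granule cell synapses, gave the largest mean difference of the tested members with all 6 lots. Grin3b was larger without lot 3 (-0.57 against -0.42) and without lot 4 (-0.60 against -0.54). In control its signal was 3.35 at the lowest, 5.04 at the median and 5.67 at the highest, and in ACE it was 2.77, 4.53 and 5.07 (log2). The groups overlapped, because lot 1 was low in both, but within lots ACE was the lower array in 5 of 6. The pair differences were -0.58, 0.02, -1.10, -0.52, -0.60 and -0.44 for lots 1 to 6. Their mean of -0.54 (SE 0.13, 95% interval -0.85 to -0.23) is a 1.45-fold lower signal. The unadjusted limma p was 0.00508, the adjusted limma p was 0.168, and the exact signed-rank test gave p = 0.0625. By its limma p the probe ranked at place 721 among all tested. The probe was well above background on 5 arrays of each group, failing on control 4 and ACE 6.

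The size of the Grin2a difference depended on the processing. The normexp alternative corrected background and also added an offset of 50, beside processed signals of 13.6 to 48.4 for this probe. The part of each step was not tested. With normexp background correction in place of the processed signal it fell to -0.18 (unadjusted p = 0.0126). Without lot 3, which held the largest pair difference, it was -0.42, and with lots 2, 4, 5 and 6 alone, an alternative chosen after seeing the data, it was -0.39. Of 2279 tested probes at most as bright as Grin2a, 7.46% were at least as far down in ACE, and their median absolute difference was 0.20 against 0.06 for all probes tested. The median signed difference of these dim probes was -0.02.

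Grin2b, the GluN2B subunit of immature granule cells, was near the floor. Its probe was well above background on the control and ACE arrays of lot 1 alone and was not tested. That call did not follow the normalised level, which was 2.35 and 2.43 in lot 1 but 3.11 and 2.86 in lot 2. The signal was 1.91 at the lowest, 2.27 at the median and 3.11 at the highest in control, against 2.20, 2.56 and 2.91 in ACE. The groups overlapped and the mean difference was 0.22, with ACE the higher array in 5 of 6 lots. This difference was lost with a 75th percentile shift (-0.002) and with normexp background (-0.009). On 4 arrays the software had replaced the value of this probe by a surrogate, so the order of such low values carries little. Low signal of the Grin1 and Grin2b probes does not tell low expression from a probe that binds poorly, which was not tested.

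Grin2c, the GluN2C subunit of mature granule cells and also known from astrocytes, was well above background on all 12 arrays and showed no detectable difference. Control arrays ran from 11.23 through a median of 12.49 to 12.98, and ACE arrays from 11.52 through 12.40 to 13.11. Lots 1 and 3 were high and lots 5 and 6 low in both groups, and the groups overlapped almost fully. The mean difference was -0.01 (SE 0.08, 95% interval -0.20 to 0.18, adjusted p = 0.956), with ACE higher in 3 lots and lower in 3. The sign of so small a value turned with the setting, for example to 0.05 without lot 1 and to 0.02 with normexp background. Its interval leaves room for a change of no more than 0.20 log2 units.

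Grin2d, the GluN2D subunit of early neurons and interneurons, was the only tested member whose difference had the same sign in all 6 lots. The signal was 14.27 at the lowest, 15.95 at the median and 16.17 at the highest in control, and 14.17, 15.81 and 16.01 in ACE. Lot 3 was more than 1 unit below the other lots in both groups, and the groups overlapped, yet in every lot the ACE array was the lower. The pair differences were -0.16, -0.04, -0.09, -0.17, -0.15 and -0.10 for lots 1 to 6. The mean of -0.12 (SE 0.03, 95% interval -0.18 to -0.05) is a 1.09-fold lower signal, with an unadjusted limma p = 0.00433, an adjusted p = 0.160 and an exact signed-rank p = 0.0312, the smallest that 6 pairs allow. Of all probes tested, 6.86% were lower in all 6 lots. With the lot as a random effect in place of a fixed block, the unadjusted limma p for Grin2d was 0.228 (adjusted p = 0.533).

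Probes as rich in G+C as the Grin2d probe were also mostly lower in ACE. The 59 tested probes with at least 78.3% G+C, Grin2d among them, had a median difference of -0.15 between ACE and control, against -0.005 for all probes tested. Of these, 89.8% were lower in ACE, where the share over all probes was 52.2%, and 54.2% were lower at an unadjusted limma p under 0.05 against 9.73%. Lot 3 stood low on the same probes: their median was -0.65 relative to the median of the lots, against 0.005 over all probes tested. The 619 probes at least as bright as Grin2d had a median difference of -0.0002, and 50.2% of them were lower in ACE. The part of base composition and of brightness in the Grin2d difference was not tested. For Grin2d itself lot 3 stood at -1.65 relative to the median of the lots, further down than the -0.65 of the G+C-rich set. Whether the Grin2d values followed those of that set array by array was not tested.

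**Figure D2:**
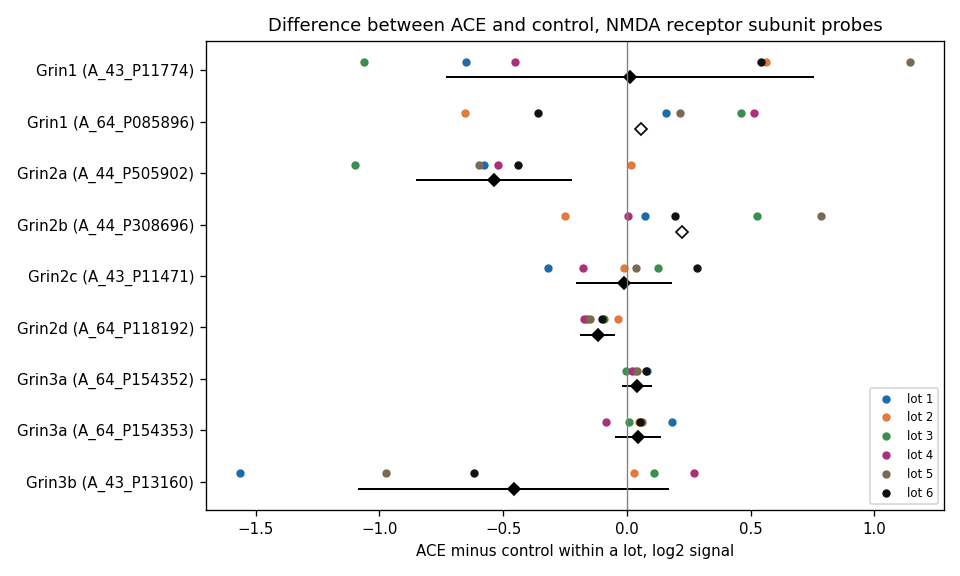
ACE minus control in log2 signal for the 9 subunit probes (x axis). Small points are the 6 lots, diamonds are the mean with the 95% limma interval as a line, and open diamonds are means of the 2 probes not tested, with no interval. The intervals of Grin2a and Grin2d lie below 0, those of the 5 other tested probes cross it, and Grin2d and Grin3a have the narrowest.

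The GluN3A gene Grin3a was measured well above background on all 12 arrays by 2 probes that lie 31 bases apart. For A_64_P154352 the control arrays ran from 7.57 through a median of 8.78 to 9.03 and the ACE arrays from 7.65 through 8.79 to 9.07. Lot 1 was the lowest in both groups, and the groups coincided. The mean difference was 0.04 (SE 0.02, 95% interval -0.02 to 0.10, adjusted p = 0.419), with ACE higher in 5 of 6 lots. The second probe, A_64_P154353, gave 0.04 (SE 0.04, 95% interval -0.05 to 0.13, adjusted p = 0.571), also higher in 5 of 6 lots. Its difference was 0.02 without lot 1 and 0.07 without lot 4. With a 75th percentile shift A_64_P154352 gave 0.008 and A_64_P154353 gave 0.01. The signals of these neighbouring probes correlated at r = 0.97 over the 12 arrays, and their 6 pair differences at r = 0.71. A change in Grin3a beyond about 0.13 log2 units lies outside both intervals.

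Grin3b, the GluN3B gene best known from motor neurons, was dim and scattered. Control arrays ran from 2.93 through a median of 3.67 to 5.16, and ACE arrays from 2.31 through 3.57 to 3.88. The highest value was control 1, and the groups overlapped. The probe was well above background on 2 control and 3 ACE arrays. The mean difference of -0.46 (SE 0.26, 95% interval -1.08 to 0.17, adjusted p = 0.417) came with ACE lower in 3 lots and higher in 3, and it was -0.24 without lot 1 and -0.10 with normexp background. With the lot as a random effect the unadjusted limma p was 0.0474 (adjusted p = 0.290).

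The balance between GluN2 subunits was examined as differences of log2 signals on the same array, which show unequal change but not the ratio of transcripts. Grin2c relative to Grin2b was 0.23 log2 units lower in ACE, with pair values that ran from -0.75 to 0.24 and ACE lower in 4 of 6 lots. The exact two-sided sign-flip permutation test gave p = 0.188, and p = 0.188 after adjustment over the 2 ratios.
Grin2a relative to Grin2b changed by -0.76 log2 units, from -1.62 to 0.27 over the pairs, lower in 5 of 6 lots (exact sign-flip p = 0.0625, adjusted p = 0.125). With 6 pairs this test cannot go below 0.0312. Both ratios rest on the Grin2b probe, which was above background in 1 lot. With normexp background they were 0.03 and -0.17. With a 75th percentile shift Grin2c relative to Grin2b was -0.01, and without lot 5 it was -0.13.

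Differences between lots were larger than the spread of the pair differences for some subunit probes and smaller for others, and a single lot often carried them. Each lot was also 1 slide, and lots 1, 2 and 3 were each a scan batch of their own. Lot 1 alone had the older software, and lot 3 alone the newer design file. Culture lot and these steps cannot be told apart. Lot means of Grin2d spanned 1.87 log2 units, and the SD between lots was 13.6 times the SD of the pair differences. Without lot 3 the span was 0.32 and the ratio 2.28, and without lot 2 the ratio was 21.7. For the Grin3a probes the spans were 1.44 and 1.42 and the ratios 16.4 and 6.43, and without lot 1 the spans were 0.56 and 0.68 and the ratios 7.56 and 4.98. Grin2c had a span of 1.67 and a ratio of 3.03, and without any 1 lot the ratio stayed between 2.62 and 3.98. Grin2a, a dimmer probe, had a span of 2.31 and a ratio of 2.23, which became 0.76 and 0.76 without lot 1, and the ratio was 3.42 without lot 2 and 3.47 without lot 3. For the dimmest members the ratio was below 1: 0.68 and 0.40 for the Grin1 probes, 0.87 for Grin2b and 0.82 for Grin3b. For Grin3b it was 0.52 without lot 6. A ratio below 1 does not mean that lots were alike. A lot mean averages the control and ACE arrays while a pair difference subtracts them, so independent arrays would also give less than 1. Over all probes tested the median span was 0.76 and the median ratio 2.08. The members did not share one order of lots. Lot 1 was lowest for Grin2a (lot mean 3.06) and for Grin3a (7.61 and 8.01), but among the higher lots for Grin2c (12.78). Grin2c was highest in lot 3 (13.05) and lowest in lot 6 (11.38), while lot 3 was lowest for Grin2d (14.22). All these values are after quantile normalisation. Before it, the processed Grin2a signal was 33.4 on control 1, 48.4 on control 3 and 35.5 on control 5. On controls 2, 4 and 6 it was 27.4, 17.6 and 27.9. Control 1 also had the highest 75th percentile of the control arrays (4272). Spread between lots was not computed under another normalisation.

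Cell type markers also differed between lots. The mean of the granule cell list (Neurod1, Neurod2, Pax6, Zic1, Gabra6 and Fat2, 6 of 7 probes well above background on all arrays) ran from 7.47 to 8.89 in control and from 7.80 to 8.93 in ACE. It was lowest in lot 1, where Grin2a and Grin3a were lowest too. In lot 6 the granule cell mean was 8.36 in control, the next lowest after lot 1, and 8.32 in ACE. Lot means of Grin2a (4.99) and Grin3a (9.01 and 9.43) were above the median of the lots there. The inhibitory interneuron mean was also lowest in lot 1, at 7.81 in control and 8.18 in ACE, with the other arrays at 8.65 or above. Grin2d, in contrast, had its highest lot mean in lot 1 (16.09). The oligodendrocyte lineage mean was low in lot 1 (13.26 in control and 13.24 in ACE) and lot 2 (13.23 and 13.28). It was highest in lot 6 (14.07 and 14.14). The astrocyte mean (Gfap, Aqp4, Aldh1l1, S100b and Gja1) ran from 13.33 to 14.58 in control and from 13.29 to 14.50 in ACE. It was highest in lot 1 and lowest in lots 5 and 6, the lots in which Grin2c was lowest. Within lots, the median difference between ACE and control was -0.02 for the granule cell probes, of which 1 of 7 passed an unadjusted p of 0.05, and -0.07 for the astrocyte probes, of which 1 of 9 passed. Other lists had larger medians: 0.21 for inhibitory interneuron probes, with 1 of 7 passing, 0.15 for pan-neuronal probes, with 1 of 5, and -1.04 for skeletal muscle probes, with 2 of 6. These counts stand beside the 16.6% of all probes tested. The median absolute difference over all probes tested was 0.06, and Grin2d differed by -0.12. The muscle mean was 6.29 to 10.62 in control and 6.17 to 9.41 in ACE. The part of cell composition in the subunit values was not tested.

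**Figure D3:**
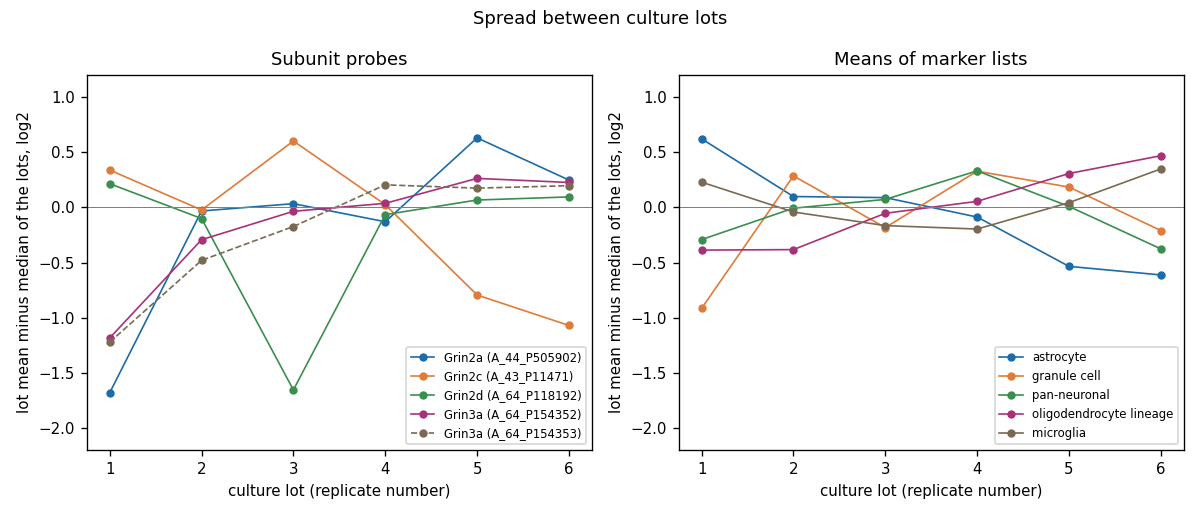
Mean of the control and ACE arrays of a lot minus the median over the 6 lots (y axis, log2), for the 5 subunit probes well above background on at least 10 arrays (left) and for the means of 5 marker lists (right). Lines only join the points of a probe or list, since the lots have no order. Lot 1 is low for Grin2a, Grin3a and the granule cell list, lot 3 is low for Grin2d, and lots 5 and 6 are low for Grin2c and the astrocyte list. Lots 1 and 2 are low for the oligodendrocyte lineage list. Each lot was also 1 slide.

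The probes of other genes most like each subunit that was well above background on every array were named by their Pearson correlation over the 12 arrays. For Grin2c they were Fam20a (r = 0.991) and Ank2 (r = 0.990), among 20060 probes. For Grin2d they were Ppia, the cyclophilin A gene (r = 0.988), and Rpl31l2 (r = 0.986). For Grin3a they were Wnt2 (r = 0.984) and Dlk2 (r = 0.983). These correlations describe arrays in pairs of 1 lot and carry no test. The 6 probes differed between ACE and control by -0.03 to 0.04 log2 units.

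Genes that surround the receptor were read from 7 lists with 96 genes. Of 123 probes, 116 were tested, and 14 (12.1%) had an unadjusted limma p under 0.05, 9 higher and 5 lower in ACE, against 16.6% of all probes tested. None passed after adjustment (0 of 116). Their median difference was 0.001, beside -0.005 over all probes tested. Without lot 2 the count was 8, where 11.8% of all probes tested passed, and with the exact signed-rank test it was 9, where 11.6% passed.

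**Figure D4:**
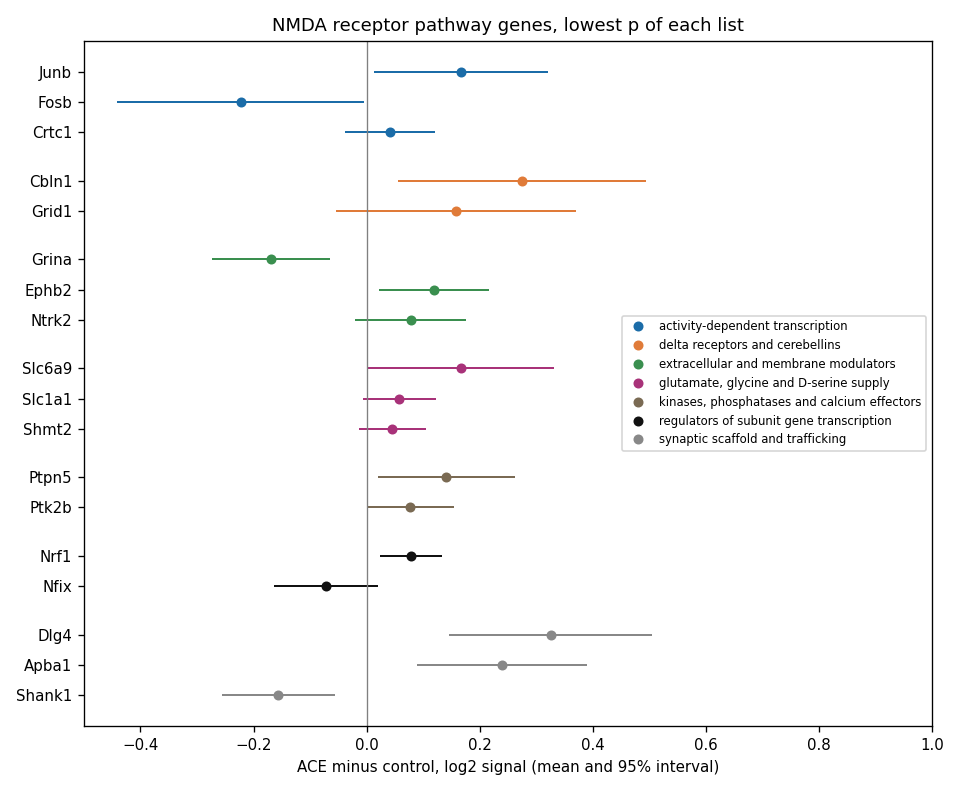
ACE minus control in log2 signal (x axis, mean as a point and 95% limma interval as a line, 6 lots) for genes chosen by the lowest unadjusted p in each of 7 lists of NMDA receptor pathway genes, at most 3 a list. Differences run from -0.22 for Fosb to 0.33 for Dlg4, and both directions occur among the genes shown in 4 of the 7 lists.

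Among the scaffold and trafficking genes, 3 of 26 probes were under the unadjusted threshold, 2 higher and 1 lower. Dlg4, which encodes the postsynaptic density protein PSD-95 that anchors NMDA receptors, averaged 6.08 in control and 6.40 in ACE. Its difference of 0.33 (SE 0.07, unadjusted p = 0.00375, adjusted p = 0.156) was higher in all 6 lots. Apba1, an adaptor in the transport of receptor vesicles, was 0.24 higher, in all 6 lots. Shank1, a scaffold below PSD-95, was 0.16 lower, in all 6 lots, on A_64_P059993, and its other tested probe, A_64_P102996, had a difference of -0.16, lower in 4 of 6 lots (adjusted p = 0.601).

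Of the extracellular and membrane modulators, 2 of 17 probes were under the threshold. Grina, a membrane protein named for its likeness to a glutamate-binding NMDA receptor protein and no subunit of the channel, averaged 13.60 in control and 13.43 in ACE, and the difference of -0.17 (SE 0.04, unadjusted p = 0.00653, adjusted p = 0.176) was lower in all 6 lots. Ephb2, a receptor tyrosine kinase that binds NMDA receptors at synapses, was 0.12 higher, in 5 of 6 lots. Ntrk2, the receptor of brain-derived neurotrophic factor, had a difference of 0.08 on the probe with the lowest p (adjusted p = 0.376), and its other probes ran from -0.04 to 0.03.

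The delta receptors and cerebellins, which build the synapse between parallel fibres and Purkinje cells, had 2 of 7 probes under the threshold. Cbln1, secreted by granule cells, averaged 10.11 in control and 10.39 in ACE and was 0.28 higher (SE 0.09, unadjusted p = 0.0205, adjusted p = 0.228), in all 6 lots. Grid1 had a difference of 0.16 (unadjusted p = 0.117).

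Kinases, phosphatases and calcium effectors had 3 of 25 probes under the threshold. Ptpn5, the phosphatase STEP that removes GluN2B from the surface, was 0.14 higher in ACE, in 5 of 6 lots (adjusted p = 0.247). The 2 probes of Ptk2b, a kinase upstream of Src at the receptor, disagreed: A_44_P482346 was 0.08 higher, in 5 of 6 lots, and A_64_P154484 had a difference of -0.21 (unadjusted p = 0.118, adjusted p = 0.409), lower in 5 of 6 lots.

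The supply of glutamate, glycine and D-serine had 1 of 16 probes under the threshold. For Slc6a9, the glycine transporter GlyT1, probe A_64_P034551 was 0.17 higher in 5 of 6 lots (adjusted p = 0.290), while A_64_P059525 had a difference of -0.06, lower in 4 of 6 lots (adjusted p = 0.599). Slc1a1, a neuronal glutamate transporter, and Shmt2, which makes glycine from serine in mitochondria, had differences of 0.06 and 0.05 that did not reach the threshold. Activity-dependent transcription had 2 of 12 probes, with Junb 0.17 higher in 5 of 6 lots and Fosb 0.22 lower in 4 of 6, and Crtc1, a coactivator of CREB, at 0.04. Among regulators of subunit gene transcription, 1 of 13 probes passed. It was A_64_P128454 of Nrf1, a transcription factor known to act on subunit genes, which was 0.08 higher in all 6 lots, but the other Nrf1 probe, A_64_P148383, had a difference of -0.02, lower in 5 of 6 lots (adjusted p = 0.791). Nfix, a nuclear factor I gene, had a difference of -0.07 on both of its probes. Every one of these adjusted p-values was above 0.05.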

How the data were processed

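The authors hybridised Cy3-labelled RNA to 1-colour Agilent arrays, and Feature Extraction (version 11.0.1.1 for lot 1, 11.5.1.1 for the others, per the file headers) gave the deposited processed intensity, with background subtracted and no scaling between arrays. They also deposited a table of log2 values, quantile normalised and centred per probe, used here as an alternative. Here control spots were left out, outlier-marked spots were set to missing, and log2 intensity was quantile normalised over 12 arrays and averaged per probe. Probes above the 20th percentile on at least 7 arrays, with at least 4 complete pairs, were tested (23796 of 30367) with limma 3.58.1 in R 4.3.3, two-sided, with Benjamini-Hochberg adjustment and the replicate number as a block. The pairing comes from the study's culture lots. Deviations from group means correlated at 0.449 to 0.912 for arrays sharing a number and at -0.439 to 0.390 otherwise. Arrays sharing a number also shared a slide, scan batch, software version and design file, so these correlations cannot tell the lot from those steps. No spot was saturated (0). The number of arrays limits the precision. Named genes were all member probes, the 3 lowest p per pathway list, and the 2 probes most like each member well above background on all arrays. Some of these are not reported here. The members and lists were chosen with earlier results of these data known. Scripts were tested on simulated data, and figures used matplotlib (version 3.10.9). Alternatives covered normalisation, background, filter, outlier spots, value table, block, rank test and single lots. The normexp background alternative also added an offset of 50. Markers of muscle, microglia, meningeal fibroblasts and endothelium were also read. The median differences of their probes were -1.04, 0.09, 0.04 and -0.16, with 2 of 6, 3 of 7, 0 of 5 and 0 of 2 under an unadjusted p of 0.05, and for the Purkinje cell and oligodendrocyte lineage lists -0.05 and 0.02, with 1 of 6 and 3 of 12, beside 16.6% of all probes tested.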

Additional observations from a re-analysis of the deposited data

Results flagged for a closer look

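Among 38 groups of 6 values, 18 of them of subunit probes, 4 held a value whose gap to its nearest neighbour was large relative to the range of the group (Dixon's test). Chance gives about 5% of such groups. The Grin2a signal on the ACE array of lot 1 was 2.77, where the nearest other ACE array was at 4.23. Its control partner was also the lowest of its group, and without lot 1 the Grin2a difference was -0.53. Before quantile normalisation the processed Grin2a signal of ACE 1 was 23.3, with the other ACE arrays at 13.6 to 28.6. The Grin2d signal of lot 3 stood apart in both groups, at 14.27 in control, where the nearest was 15.79, and at 14.17 in ACE, where the nearest was 15.72. Without lot 3 the Grin2d difference was -0.12. The mean of the skeletal muscle markers was 9.41 on the ACE array of lot 1, with the nearest other ACE array at 6.62, and control arrays ran from 6.29 to 10.62. No subunit value was read from these markers.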

How the results depend on the processing

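No member probe passed the adjusted threshold under any of the 17 alternatives run (0 each time). Grin2a, Grin2d, Grin3a and Grin3b kept their sign under all of theirs, at -0.65 to -0.18 for Grin2a, -0.14 to -0.11 for Grin2d and -0.60 to -0.10 for Grin3b. Grin3a ran from 0.008 to 0.06 on A_64_P154352 and from 0.009 to 0.07 on A_64_P154353. The count of members under an unadjusted p of 0.05 went from 2 to 1 with probes restricted to those well above background on all 6 arrays of a group, to 1 with the exact signed-rank test, and to 0 with no replicate block. The pathway count went from 14 to 9 with the signed-rank test and to 0 with no replicate block. Leaving out 1 lot at a time gave 2 to 2 members and 8 to 14 pathway probes. With no replicate block, 81 of all probes (0.34%) were under 0.05, and with the block as a random effect 5 probes, none of them members, passed the adjusted threshold. That random effect kept the count of members under 0.05 at 2, but with Grin3b in place of Grin2d, for which the adjusted limma p was 0.290 and 0.533. Grin1 A_43_P11774 turned sign with a 75th percentile shift (-0.11), with normexp background (-0.00034) and without lots 2, 5 or 6 (-0.10, -0.21 and -0.09, with 0.23 the highest value without a lot). Grin2c turned with normexp background (0.0158), without lots 1 or 4 (range without 1 lot -0.0692 to 0.0510), within the scan batch of lots 4 to 6 (0.0475) and with lots 2, 4, 5 and 6 alone (0.0326, chosen after seeing the data). The Grin2c to Grin2b difference became 0.0252 with normexp background, the only sign change of the ratios. The untested Grin2b probe turned with the 75th percentile shift (-0.0024) and normexp background (-0.0094), and Grin1 A_64_P085896 with the 75th percentile shift (-0.0069), without lots 3 or 4 (-0.03 and -0.04) and with lots 2, 4, 5 and 6 alone (-0.07). The cause was not tested for any of these. The share of higher calls among all probes under 0.05 was 41.5%, 19.1% with the 75th percentile shift, which moved the median difference to -0.03, and 51.5% with the deposited log2 table. Within the scan batch of lots 4 to 6, Grin2a was -0.52 and Grin2d -0.14; lots 1, 2 and 3 each made a batch of 1 lot. Low signal over background limits Grin1, Grin2b and Grin3b.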
